A study of Homo sapiens with 6 samples.

Results

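Chromosome 19 holds the largest share of the human C2H2 zinc finger genes, a family of DNA-binding proteins whose fingers each fold around a zinc ion held by paired cysteines and histidines. The members described here were all protein-coding genes of the read-count table whose symbol starts with ZNF and a number and whose position in GENCODE release 44 (GRCh38) is on chromosome 19. Of 249 such genes, 211 had at least 10 counts in at least 3 of the 6 libraries and were kept, out of 15078 kept genes in all. They were set beside the other 892 kept genes of chromosome 19 and the 219 kept ZNF genes of other chromosomes. RNA came from Meg-01 cells, an established human megakaryoblastic leukaemia line, either untreated (control, 3 libraries) or grown with 500 µM sodium propionate (C3, 3 libraries). C3, the 3-carbon fatty acid that gut bacteria release, was added to the medium, and the labels give 48 h of treatment while the methods name 24 h as well as 48 h. No genotype or further agent separates the groups, both are the same cell line, and the legend of the study's RNAseq plot names technical replicates, so that the p-values below measure the spread between libraries and need not cover that between independent cultures. Bulk RNA cannot tell fewer cells of a type from less RNA per cell.

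Most of these genes code for KRAB zinc finger proteins. The KRAB box at the start of such a protein binds the scaffold TRIM28 (KAP1), which brings the histone H3 lysine 9 methyltransferase SETDB1 and HP1 proteins to the bound DNA, and the targets of many family members are transposable elements. The genes arose by tandem duplication and lie in clusters, so neighbours are often close copies of each other. A search of the translated coding sequences found a KRAB A box in 179 of the 211 kept genes and none in 32. The kept genes had between 1 and 34 canonical C2H2 fingers with a median of 12, or 13 with and 9 without a KRAB box.

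Library totals ranged from 16159449 to 22821722 counts, and the 211 genes together took 0.334%, 0.331% and 0.335% of the counts in the control libraries and 0.318%, 0.344% and 0.340% after C3. Control library 3 and C3 library 1 stood apart from the other libraries of their groups in the contrast between zinc finger genes and the rest of the chromosome, and the group medians are given with and without them. Zinc finger genes deviated from other chromosome 19 genes by a median of 0.105 (log2) in control library 3 and of -0.155 in C3 library 1, and by -0.08 to 0.0044 in the other 4. The megakaryocyte markers ITGA2B, GATA1 and SELP were at a mean of 12902, 1818 and 2012 normalized counts in control cells, while PF4 and GP1BB were listed at 0 in every library. The summed megakaryocyte markers spanned 993 to 1048 CPM (counts scaled to the library total) in control and 1003 to 1049 after C3, with 1 of 8 tested members higher and 1 lower at an adjusted p below 0.05. The erythroid sum was 35.1 to 37.6 in control and 44 to 46.6 after C3 (2 of 6 tested members higher, 1 lower), the granulocyte or monocyte sum 42.9 to 45.6 and 34.1 to 36.1 (0 of 3 higher, 1 lower, FCGR3B at 0) and the lymphoid sum 12.4 to 12.9 and 13.8 to 18.6 (0 of 3 either way, MS4A1 at 0). The part of these marker shifts in the zinc finger results was not tested.

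After C3 treatment 179 of the 211 chromosome 19 zinc finger genes had a fitted change of under 1.3-fold in either direction, and of the changes at an adjusted p below 0.05, 18 were falls and 3 were rises. Scaling by library size alone turned this balance to 6 falls and 7 rises, where 4.04% of all kept genes fell and 15.3% rose. With the gates of the study, adjusted p under 0.01 together with more than 1.3-fold change, 0 of 211 genes were upregulated, where 5.05% of all kept genes were, and 4 were downregulated (1.90%), where 1.47% of all kept genes were. The count of 4 was 2 by DESeq2 and with scaling by library size alone, 1 without control library 1, and 2 without control library 2 or C3 library 3. The same gates called 78 of the other 892 chromosome 19 genes higher (8.74%) and 14 lower (1.57%), and 1 higher and 2 lower among the 219 ZNF genes of other chromosomes. Adjusted p-values of single genes come from the quasi-likelihood test of edgeR and were corrected over the 15078 genes by the Benjamini-Hochberg method. DESeq2 and limma-voom also called 0 zinc finger genes of the chromosome higher, and 11 had an unadjusted edgeR p below 0.05 in that direction and 29 in the other, where 16.8% and 15.3% of all kept genes did. The zero is not firm, since ZNF587 passed both gates in 6 of 16 refits with other settings or without a library. These shares are descriptions, and the difference between the gene groups was not tested.

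At an adjusted p below 0.05 without a fold gate, 3 of the 211 genes rose, where 11% of all kept genes did, and 18 fell (8.53%), where 8.77% of all kept genes did. With each library left out, 0 to 4 of the 211 rose and 8 to 15 fell, beside 7.22% to 12.5% and 4.01% to 12.9% of all kept genes. By DESeq2, 1 rose and 11 fell, beside 7.43% and 7.73% of all kept genes. The other chromosome 19 genes had 141 rises (15.8%) and 98 falls (11.0%), and the 219 ZNF genes of other chromosomes had 9 rises (4.11%) and 10 falls (4.57%). Every C3 library was above every control library for 14 of the 211 genes (6.64%) against 17.5% of all kept genes, and the reverse held for 39 (18.5%) against 16.9%. In the edgeR fit of all libraries, the share of falls was thus close to that of the whole table when abundance was left aside, and the share of rises was below it. From 50 mean counts, falls were more frequent than among all kept genes of like counts, as given below. The log2 fold changes of the zinc finger genes had a median of -0.04 and quartiles of -0.19 and 0.10, against a median of 0.0021 and quartiles of -0.14 and 0.19 over all kept genes. Other chromosome 19 genes reached an upper quartile of 0.25.

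**Figure D1:**
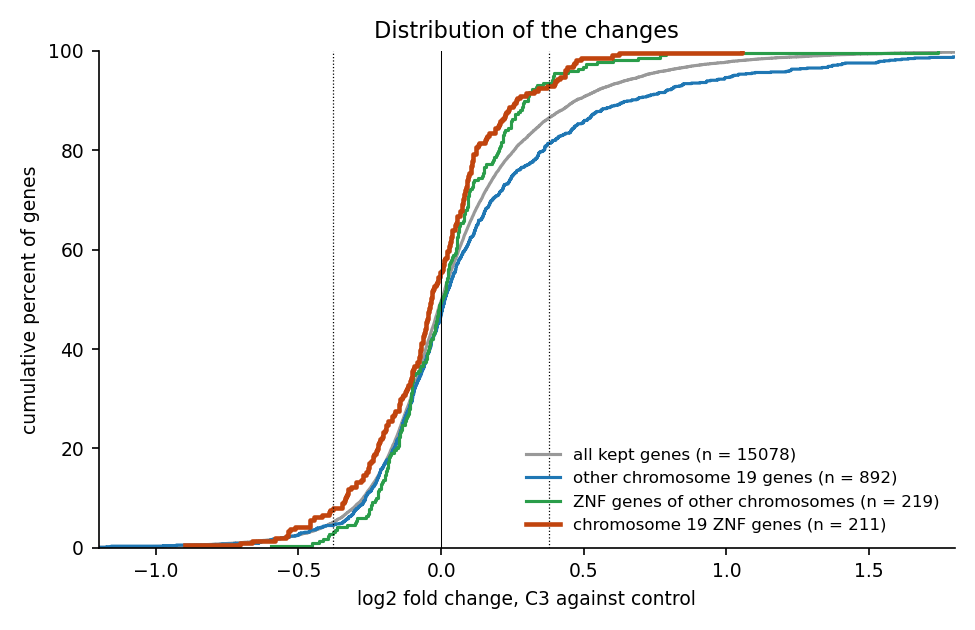
Cumulative percent of genes (vertical axis) at or below each log2 fold change, C3 against control (horizontal axis), for 4 gene groups, with dotted lines at the fold gate of 1.3. The curve of the 211 chromosome 19 ZNF genes lies above those of all kept genes and of other chromosome 19 genes over most of the range, most clearly to the right of 0, where 15 of its genes pass the upper gate line and 166 of the 892 other chromosome 19 genes do.

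The zinc finger genes are low in abundance, with a median of 154 normalized counts against 577 for the other genes of the chromosome. In RPKM (counts per kilobase of merged exons, scaled to the library total times its TMM normalization factor) the medians were 1.65 and 7.66. The groups were therefore also compared at like counts. Among genes of 50 to 200 mean counts, 0 of 76 zinc finger genes and 28 of 130 other chromosome 19 genes (21.5%) were higher by both gates, where 10.1% of all kept genes in the band were. Between 200 and 500 counts the numbers were 0 of 56 and 15 of 105 (14.3%, and 7.64% of all kept genes), and from 500 counts 0 of 36 and 19 of 459 (4.14%, and 2.70% of all kept genes). All 4 genes that were lower by both gates had between 200 and 500 counts, where 4 of 56 zinc finger genes (7.14%) and 3 of 105 others (2.86%) were lower, beside 2.62% of all kept genes. The ZNF genes of other chromosomes also had 0 of 30, 0 of 73 and 0 of 58 rises in the bands below 500 counts. At an adjusted p below 0.05, 0 of 43 zinc finger genes fell below 50 counts and 3 of 76 (3.95%) at 50 to 200. Between 200 and 500 counts 7 of 56 (12.5%) fell, and from 500 counts 8 of 36 (22.2%). In the same order of bands, 0.961%, 3.28%, 7.49% and 15.8% of all kept genes fell, and 1.01%, 3.85%, 4.76% and 18.7% of other chromosome 19 genes. The 2 kinds of gene differ in base composition as well, with a median GC content of 42.4% in the longest transcript of the zinc finger genes and 59.1% in that of the others. Below 48% GC, where 174 of the 211 zinc finger genes lie, 0 of 174 and 3 of 94 other chromosome 19 genes (3.19%) were higher by both gates, beside 3.44% of all kept genes. At an adjusted p below 0.05 in that range, 3 of 174 (1.72%) and 8 of 94 (8.51%) rose, beside 681 of all 7563 kept genes of that range. The falls there were 11 of 174 (6.32%) and 4 of 94 (4.26%), beside 6.44% of all kept genes of the range. In the GC-rich class of 54% and over, 0 of 23 zinc finger genes and 70 of 679 other genes of the chromosome (10.3%) were higher by both gates, and 2 of 23 (8.70%) and 11 of 679 (1.62%) were lower. Of all kept genes in the class, 8.08% were higher and 1.98% lower by both gates. At an adjusted p below 0.05 in that class, 0 of 23 and 119 of 679 (17.5%) rose, and 7 of 23 (30.4%) and 79 of 679 (11.6%) fell, with 14.7% and 11.6% for all kept genes. The falls in the class became 2 of 23 and 35 of 679 without C3 library 3, 3 and 48 without control library 1, 3 and 44 without control library 2, 4 and 47 without C3 library 2, and 8 and 141 without C3 library 1. They were 4 and 75 by DESeq2, and 3 and 44 with scaling by library size alone. After a correction for GC content they were 10 (43.5%) and 162 (23.9%), and 10 and 144 with a replicate block as well.

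**Figure D2:**
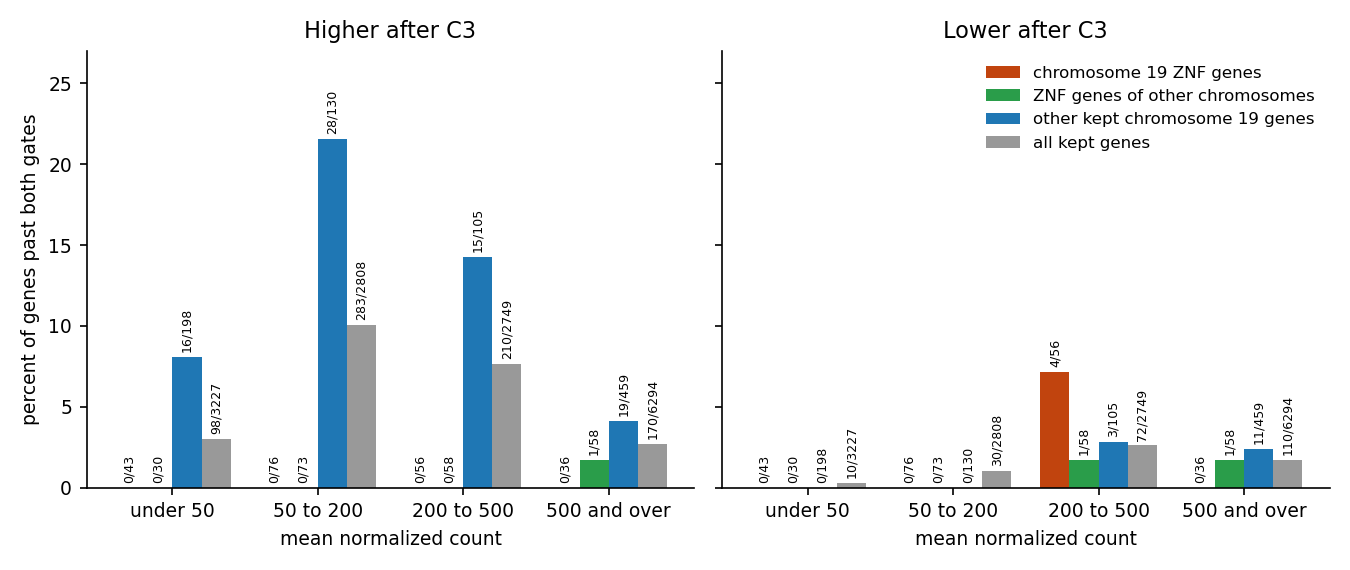
Percent of genes past both gates (vertical axis) in 4 bands of mean normalized count (horizontal axis), higher after C3 on the left and lower on the right, with the number called and tested above each bar. No chromosome 19 ZNF gene is called higher in any band, whereas the other genes of the chromosome reach 28 of 130 in the band of 50 to 200 counts.

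As a group, the zinc finger genes overlapped between control and C3 libraries. The median deviation of the 211 genes from their control mean, on the scale of log2 of the normalized count plus 1, was -0.042, -0.0057 and 0.056 in the control libraries and -0.086, -0.023 and -0.0079 in the C3 libraries. C3 library 1 was the lowest and control library 3 the highest of the 6. The median log2 fold change of the zinc finger genes minus that of the other chromosome 19 genes was -0.049, and became 0.0074 without C3 library 1 and -0.015 without control library 3. The 32 genes without a KRAB box had a median deviation of 0.03, 0.01 and -0.02 in control and of -0.09, -0.10 and -0.13 after C3, so that all C3 libraries lay below all control libraries. For the 179 genes with a KRAB box the values were -0.048, -0.0087 and 0.062 in control and -0.088, -0.012 and 0.0030 after C3, which overlapped.

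**Figure D3:**
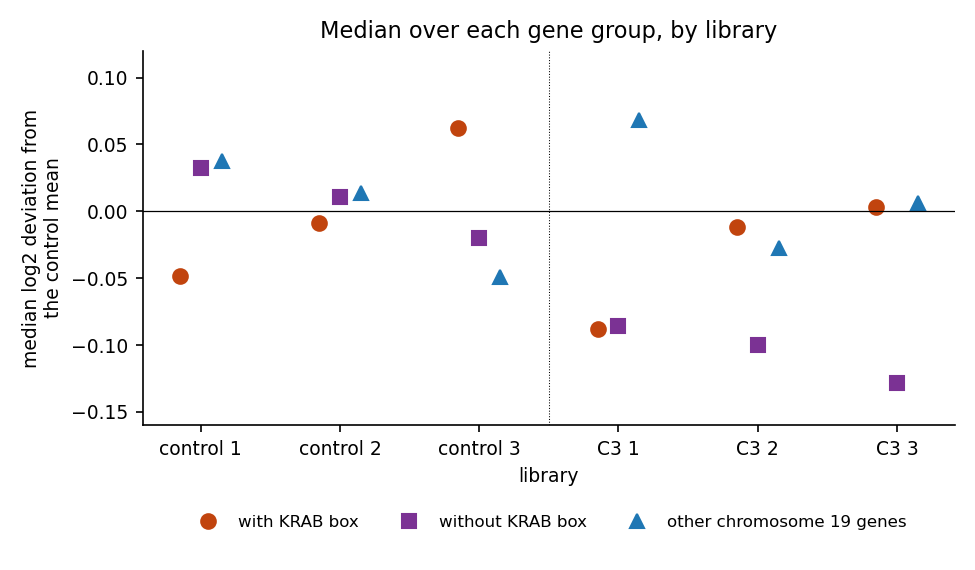
Median over each gene group of the log2 deviation from the control mean (vertical axis, 1 point per library) for the genes with a KRAB box, without it, and for other chromosome 19 genes. The squares of the genes without a KRAB box sit lower in the 3 C3 libraries than in the 3 control libraries, while the circles of the KRAB genes overlap between the groups.

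By role, 10 of 179 KRAB genes (5.59%) and 8 of 32 genes without the box (25%) fell at an adjusted p below 0.05, where 8.77% of all kept genes did, and 2 and 1 rose. The size of the contrast depended on the libraries. Without C3 library 3 the falls were 7 of 179 (3.91%) and 2 of 32 (6.25%), beside 4.01% of all kept genes. The 8 falls became 4 (12.5%) without control library 1, 3 (9.38%) without control library 2 and 5 (15.6%) without C3 library 2. Of all kept genes, 5.39%, 4.66% and 5.52% fell in these fits. The 8 falls became 5 (15.6%) by DESeq2 and 3 (9.38%) with scaling by library size alone, beside 7.73% and 4.04% of all kept genes. For the KRAB genes the 10 falls became 5 (2.79%) without control library 2 or C3 library 2 and 6 (3.35%) without control library 3 or C3 library 1. They became 6 (3.35%) by DESeq2 and 3 (1.68%) with scaling by library size alone. The share of all kept genes was higher in each of these fits. The genes without a KRAB box were more abundant, with a median of 542 counts against 141 (15.8% of all kept genes from 500 counts fell), and 20 of them were in the GC-rich class against 3 of the KRAB genes. Of those 20, 7 fell and 0 rose, and of the 12 with lower GC content 1 fell and 1 rose. The parts of the KRAB box, abundance and GC content in this contrast were not tested.

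The strongest fall in p-value was that of ZNF414 (ENSG00000133250; GRCh38 chr19:8509678-8514167, reverse strand), a short zinc finger protein gene without a KRAB box. Its normalized count, the count scaled to a common effective library size, was 506, 478 and 561 in the control libraries and 380.1, 351 and 331 after C3. Every C3 library was below every control library. The level fell 1.46-fold, from 515 ± 42.2 to 354 ± 24.7 (SD, n = 3 libraries each), or -0.54 ± 0.09 (standard error, SE) on the log2 scale, and the adjusted p by edgeR was 1.0e-04. This call was kept in all 16 refits, 6 of them without a library. The exact two-sided permutation test of the 6 values gave 0.1, the smallest p that 3 against 3 libraries allow. It gave the same for ZNF600, ZNF888, ZNF784, ZNF587, ZNF837, ZNF497, ZNF816 and ZNF181.

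ZNF784 (ENSG00000179922; chr19:55620741-55624566, reverse strand), another gene without a KRAB box, had 299, 313 and 257 counts in control and 229, 199 and 213 after C3. The groups did not overlap, and the change was -0.45 ± 0.11 (log2, SE) at an adjusted p of 0.0050 by edgeR. The adjusted p went above 0.01 without control library 1 (0.034) or 2 (0.046) or without C3 library 2 (0.025) or 3 (0.026), by DESeq2 (0.014) and with scaling by library size alone (0.022). The remaining falls at an adjusted p below 0.05 among genes without a KRAB box were those of ZNF628, ZNF524 and ZNF574 (log2 fold changes of -0.27, -0.26 and -0.23), of ZNF507 (-0.22) and of 2 low genes at the end of the long arm. Without C3 library 3 the adjusted p was 0.12, 0.21, 0.11 and 0.11 for ZNF628, ZNF524, ZNF574 and ZNF507. ZNF837 had 93.1, 94.4 and 105 counts in control and 84.2, 51.7 and 51.8 after C3. C3 library 1 was only just below the control libraries, and the change was -0.66 ± 0.19 (log2, SE, adjusted p = 0.016). The neighbouring ZNF497 went from 89.1, 99.7 and 66.9 to 56.9, 58.4 and 56.5 counts (log2 change -0.58 ± 0.19 SE, adjusted p = 0.031), and 36.3% of its exon bases lie antisense to another gene's exons. Without single libraries their adjusted p rose to at most 0.11 (ZNF837, without C3 library 3) and 0.18 (ZNF497, without control library 2). By DESeq2 it was 0.053 for ZNF837 and 0.099 for ZNF497, and with scaling by library size alone 0.033 and 0.068.

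**Figure D4:**
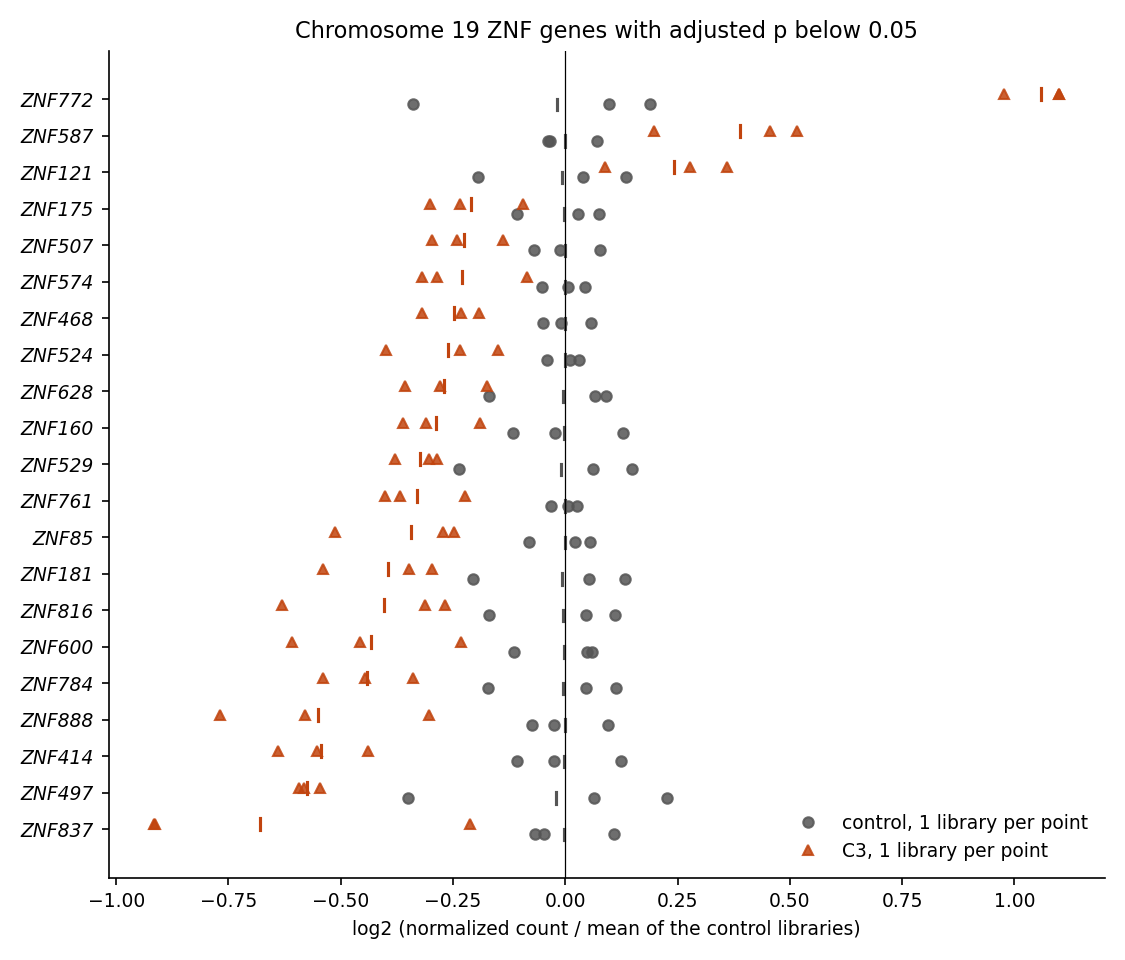
Normalized count of each library relative to the mean of the control libraries (horizontal axis, log2) for the 21 chromosome 19 ZNF genes with an adjusted p below 0.05, 1 row per gene, with short bars at the group means. The 3 rises stand at the top, and for 17 of the 18 falls every C3 triangle lies left of every control circle, the exception being ZNF175.

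Of the 10 KRAB genes that fell, 7 lay in 1 gene cluster of the long arm, and the other 3 (ZNF85, ZNF181 and ZNF529) lay apart. Dividing the 249 annotated genes into runs of neighbours no more than 500000 bases apart gave 20 runs, of which 7 had 15 or more kept genes. The run from ZNF175 to ZNF331 (chr19:51571283-53580269) had 40 annotated and 31 kept genes, 30 of them with a KRAB box. In it 7 genes fell at an adjusted p below 0.05 (22.6%, against 8.77% of all kept genes), 0 rose, 21 of 31 fitted changes were negative and the median log2 fold change was -0.07. In the run from ZNF101 to ZNF254 (chr19:19668796-24129968), which holds ZNF91 and ZNF93, 23 of 31 fitted changes were positive with a median of 0.11, and ZNF85 was the only gene past the p-value threshold, with a fall of log2 -0.33 that, of the fits without a library, stayed below 0.05 only without control library 3 or C3 library 2. The run from ZNF628 to ZNF835 (16 genes, 10 without a KRAB box) had a median of -0.18 with 3 falls, and the most distal run from ZNF264 to ZNF446 (40 genes) a median of 0.02 with 2 rises and 2 falls. These runs were singled out after their values were seen, and the differences between them were not tested. The count of 7 falls in the first of them was 4 to 7 with single libraries left out, the lowest without C3 library 2, and 3 with scaling by library size alone. The 3 falls of the run from ZNF628 to ZNF835 became 1 without control library 1, control library 2 or C3 library 3 and with scaling by library size alone, and 2 by DESeq2. They became 5 after a correction for GC content, with or without a replicate block. The 2 falls and 2 rises of the most distal run were 0 and 0 without C3 library 2 or 3, and 0 and 1 by DESeq2. Its median was -0.0045 without control library 2 and 0.094 with scaling by library size alone. That of the run from ZNF101 to ZNF254 was 0.056 to 0.17 with single libraries left out and 0.18 with scaling by library size alone. With that scaling the median of the run from ZNF628 to ZNF835 was -0.11.

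**Figure D5:**
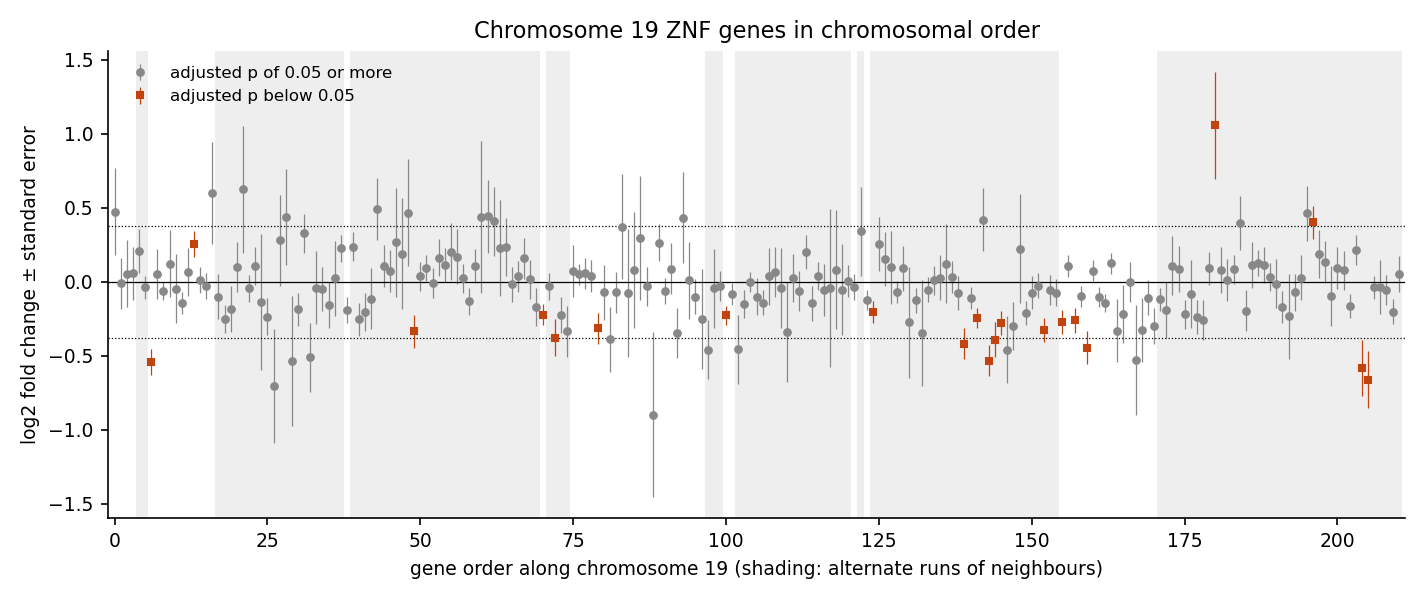
Log2 fold change ± standard error (vertical axis) of the 211 genes in their order along chromosome 19 (horizontal axis), with squares for an adjusted p below 0.05, dotted lines at the fold gate and alternate runs of neighbours shaded. A row of squares below 0 falls in the run from ZNF175 to ZNF331, and the squares above 0 are single genes.

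Within that run, ZNF888 and ZNF600 passed both gates. ZNF888 (ENSG00000213793; chr19:52904415-52923470, reverse strand) had 439, 404 and 390.4 counts in control and 241, 333 and 275 after C3. No C3 library reached a control library, and the gene fell 1.45-fold (log2 change -0.54 ± 0.11 SE, adjusted p = 6.8e-04 by edgeR). The adjusted p stayed below 0.05 with each library left out, and was 0.012 without control library 1. ZNF600 (ENSG00000189190; chr19:52749942-52786807, reverse strand) had 309.6, 349 and 346 counts and then 219.7, 285 and 244. These groups did not overlap either, the log2 change being -0.42 ± 0.11 (SE, adjusted p = 0.0065), and the adjusted p without single libraries lay between 0.0017 and 0.040, below 0.01 only without C3 library 2. It was also above 0.01 by DESeq2 (0.016), with scaling by library size alone (0.037) and with a minimum mean count of 50 (0.011). Next to ZNF888 on its distal side, ZNF816 fell from 245, 284 and 297 to 229, 178 and 222 counts (log2 change -0.39 ± 0.12 SE, adjusted p = 0.019, and 0.12 without C3 library 2).

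The other falls of the run are named here after their values were seen. ZNF468 went from 1124, 1156 and 1211 counts to 1018, 933 and 990.4 (adjusted p = 0.011, and 0.065 without C3 library 2), ZNF160 had a log2 fold change of -0.28 (adjusted p = 0.015, over 0.05 without control library 2 or C3 library 2 and at most 0.14) and ZNF761 of -0.33 (adjusted p = 0.0045, and at most 0.036 with any library left out). ZNF175, at the proximal end, had 1133, 1032 and 1171 counts in control and 903, 945 and 1042 after C3, and its groups overlapped (log2 fold change -0.20, adjusted p = 0.049 by edgeR, below 0.05 only without control library 2 or C3 library 3 when a library was left out). Outside the run, ZNF181 went from 188, 225 and 238 to 149, 170.4 and 176 counts without overlap (log2 fold change -0.38, adjusted p = 0.031). With a library left out, its adjusted p was below 0.05 only without control library 1, and at most 0.12. It was 0.078 by DESeq2 and 0.10 with scaling by library size alone. ZNF529 had a log2 fold change of -0.32 (adjusted p = 0.032, below 0.05 only without control library 1 when a library was left out). Genes of the run between the called ones did not pass. ZNF28, which overlaps the position of ZNF468, was at -0.11 (adjusted p = 0.33), ZNF480 at 0.01 (0.97), ZNF83 at 0.03 (0.89) and ZNF320 at 0.42 (0.18). Between ZNF160 and ZNF761, ZNF415 was at -0.46 (0.16), ZNF347 at -0.30 (0.21) and ZNF845 at -0.21 (0.065). Every C3 library was below every control library for ZNF347 and ZNF845. In the same stretch ZNF665 was at 0.22 (0.73), ZNF525 at -0.07 (0.69) and ZNF765 at -0.03 (0.87).

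The cluster neighbours are close copies, which bears on how reads were divided among them. A finger unit of ZNF888 (its finger 9, 28 codons, chr19:52906837-52906920) is shown with the most similar unit of 3 neighbouring genes (chr19:52765755-52765838, chr19:52950161-52950244 and chr19:52841310-52841393, all GRCh38, reverse strand), with the codons of the zinc-binding cysteines and histidines in capitals.
ZNF888: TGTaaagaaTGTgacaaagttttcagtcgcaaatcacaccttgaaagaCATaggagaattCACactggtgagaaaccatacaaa
ZNF600: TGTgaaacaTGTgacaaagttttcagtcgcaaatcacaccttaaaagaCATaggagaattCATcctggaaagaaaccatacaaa
ZNF816: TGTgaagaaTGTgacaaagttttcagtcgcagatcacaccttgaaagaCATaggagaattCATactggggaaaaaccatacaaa
ZNF468: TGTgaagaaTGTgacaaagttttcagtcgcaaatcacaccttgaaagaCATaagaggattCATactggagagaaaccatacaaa
The unit of ZNF600 has 76 of the 84 bases of ZNF888, and those of ZNF816 and ZNF468 have 79 each. Over the longest transcript, however, 7.25% of the 75-base words of ZNF888, 6.89% of those of ZNF600, 6.21% of those of ZNF816 and 4.04% of those of ZNF468 occur in another gene's transcripts, ZNF816-ZNF321P among them for ZNF816. Over the 211 genes the median was 1.53%, 61 genes shared none and 6 shared over 50%. Leaving out those 6 genes changed none of the counts of calls.

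Promoters of the run also carry a shared sequence. RefSeq promoter windows (GRCh38.p14, 250 bases before to 50 after the annotated start) matched 188 of the 211 genes, and ZNF888 and ZNF600 are among the 23 without a window. The 12 letters CAGACCNGGAAG, searched on both strands, occur in 7 of the 188 windows (3.72%), in 2 of 677 windows of other kept chromosome 19 genes and in 27 of 27305 windows of all genes (0.0989%). All 7 genes are in the run from ZNF175 to ZNF331, where 25 genes had a window, and they are ZNF766, ZNF701, ZNF468, ZNF816, ZNF160, ZNF765 and ZNF761. Their median log2 fold change was -0.25, 6 of the 7 were negative, and 4 fell at an adjusted p below 0.05, where 22.6% of the 31 genes of the run and 8.77% of all kept genes did. The falls of the run include those of ZNF888 and ZNF600, which have no window. Among the 4 are ZNF468 and ZNF816, in whose windows the word was read. Of these 4, only ZNF761 stayed below 0.05 without C3 library 2, and ZNF468, ZNF816 and ZNF160 did not. ZNF816 and ZNF160 were also over 0.05 without control library 2, and ZNF816 without control library 3. The part of 3 windows from 130 bases before to 30 after the start is given to show the match, in capitals, at the transcription start of ZNF468 (chr19:52857590-52857749, reverse strand), ZNF816 (chr19:52962852-52963011, reverse strand) and ZNF761 (chr19:53431854-53432013, forward strand).
ZNF468: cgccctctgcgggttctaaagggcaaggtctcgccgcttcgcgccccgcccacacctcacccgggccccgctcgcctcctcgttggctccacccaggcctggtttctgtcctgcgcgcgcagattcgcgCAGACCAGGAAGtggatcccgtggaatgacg
ZNF816: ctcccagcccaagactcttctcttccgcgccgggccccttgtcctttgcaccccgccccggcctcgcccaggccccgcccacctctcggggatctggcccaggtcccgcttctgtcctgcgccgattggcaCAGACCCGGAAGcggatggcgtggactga
ZNF761: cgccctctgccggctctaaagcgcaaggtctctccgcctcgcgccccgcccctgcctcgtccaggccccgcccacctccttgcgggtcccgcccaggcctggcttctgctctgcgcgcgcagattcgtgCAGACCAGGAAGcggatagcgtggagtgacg
The letters were chosen after the windows of called genes had been read, so the count describes these promoters and tests nothing.

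Only 3 zinc finger genes of the chromosome rose at an adjusted p below 0.05, and none passed the gates of the study except in the 6 refits named above. ZNF587 (ENSG00000198466; chr19:57849859-57865117, forward strand), a KRAB zinc finger gene, had 229, 213 and 213 counts in control and 250.4, 312 and 299.6 after C3. The groups did not overlap, and C3 library 1 was the lowest of the treated libraries. The change was 0.40 ± 0.11 (log2, SE) at an adjusted p of 0.011 by edgeR, which became 0.0019 without C3 library 1 and was over 0.05 without control library 2, C3 library 2 or C3 library 3 (at most 0.064). Of its 75-base words, 38.5% occur in other genes, ZNF814 most of all, and 33.2% of its exon bases lie antisense to another gene's exons, so reads of ZNF587 cannot be assigned with certainty. ZNF814 itself had a log2 fold change of 0.46 (adjusted p = 0.083).

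ZNF121 (chr19:9560329-9584504, reverse strand), a gene without a KRAB box, had 557, 474 and 596 counts in control and 577, 657 and 696 after C3. These groups overlapped at a log2 change of 0.25 ± 0.09 (SE, adjusted p = 0.045 by edgeR, exact permutation p = 0.2), and without control library 2 the adjusted p was 0.30. ZNF772, named after its values were seen, rose 2.08-fold from a low level (8.82, 12.7 and 11.9 counts in control, 23.9, 23.9 and 22.0 after C3). Every C3 library was above every control library, but the log2 change of 1.06 ± 0.36 (SE) had an adjusted p of 0.039, and the adjusted p was over 0.05 with any library left out (0.058 to 0.13).

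The promoters of ZNF587 and ZNF772 share a different 12-letter word, ACTACATTACCC (both strands searched). It occurs in 10 of the 188 windows (5.32%), in 0 of 677 windows of other kept chromosome 19 genes and in 14 of 27305 windows of all genes (0.0513%). The 10 genes were ZNF599, ZNF17, ZNF749, ZNF772, ZNF416, ZNF530, ZNF586, ZNF587B, ZNF587 and ZNF814, with a median log2 fold change of 0.06, 4 negative values, 2 rises and 0 falls at an adjusted p below 0.05, where 11% of all kept genes rose and 8.77% fell. Both rises are those of ZNF587 and ZNF772, in whose windows the word was read. The match is in capitals in the windows from 130 bases before to 30 after the start of ZNF587 (GRCh38.p14, chr19:57849729-57849888, forward strand) and ZNF772 (chr19:57477537-57477696, reverse strand).
ZNF587: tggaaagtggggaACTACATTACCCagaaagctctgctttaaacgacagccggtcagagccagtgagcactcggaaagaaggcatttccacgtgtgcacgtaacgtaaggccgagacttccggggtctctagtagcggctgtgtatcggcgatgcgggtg
ZNF772: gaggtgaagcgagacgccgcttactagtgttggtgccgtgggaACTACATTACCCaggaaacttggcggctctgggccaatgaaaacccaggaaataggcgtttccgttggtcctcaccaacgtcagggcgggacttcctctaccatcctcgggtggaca
These letters too were chosen after the windows were read. The GC box letters GGGCGG, a common promoter word, were in 67.6% of the 188 windows, in 75.6% of the windows of other kept chromosome 19 genes and in 44.6% of all windows.

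The members with the highest level per exon length all lack a KRAB box, namely ZNF428 (52.9 RPKM over the 6 libraries), ZNF787 (45.3) and ZNF581 (43.9). ZNF428 had 1601, 1554 and 1438 counts in control and 1576, 1492 and 1521 after C3, with overlapping groups and a log2 change, of either sign over the refits, of -0.0022 ± 0.065 (SE, adjusted p = 0.99 by edgeR). ZNF787 had 3391, 3314 and 3089 counts and then 3026, 2916 and 2910.2, which did not overlap. Its log2 fold change of -0.15 had an adjusted p of 0.098 by edgeR, and 1.7e-04 after a correction for GC content. ZNF581 was at -0.10 (adjusted p = 0.29).

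Of KRAB zinc finger genes with well-studied targets or roles, 7 were looked up whatever their values, and none passed the test. ZNF91, which silences SVA retrotransposons, had 223, 229 and 246 counts in control and 189, 239 and 255 after C3, and ZNF93, which binds LINE-1 elements, had 87.2, 70.0 and 51.3 and then 58.0, 75.6 and 60.4. Both pairs of groups overlapped, with log2 fold changes of -0.02 (standard error 0.12) and -0.12 (0.20). ZNF274, which binds the 3' ends of zinc finger genes themselves, was at 0.08 (standard error 0.13). ZNF224, a repressor of the aldolase A gene, was at 0.02 (0.16), and the imprinted gene ZNF331 at -0.07 (0.09). ZNF675, which binds the signalling adaptor TRAF6, was at 0.04 (0.10), and ZNF568, known for repressing a placental IGF2 transcript, at 0.30 (0.42), the last at only 8.61 to 31.9 counts per library. Their adjusted p-values lay between 0.63 and 0.94, and the sign of the fitted change depended on the setting for 6 of the 7, all but ZNF331. A change at the fold gate of 1.3, or 0.38 on the log2 scale, is smaller than 2 standard errors for ZNF93 and ZNF568 and was not detectable for them at this depth, and it could have been missed for the other genes of this group as well.

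The cofactors through which KRAB zinc finger proteins act were all measured, 31 of 31 on a list of TRIM28, H3 lysine 9 methyltransferases, HUSH complex, HP1, DNA methylation and SUMO genes. At an adjusted p below 0.05, 5 rose and 3 fell, where 11% and 8.77% of all kept genes did, and the median log2 fold change was -0.02. TRIM28 (ENSG00000130726; chr19:58544064-58550722, forward strand), the shared corepressor with 560.1 RPKM over all libraries, was at 48544, 48096 and 45341 counts in control and 45059.7, 41179 and 41201 after C3. The groups did not overlap, and the log2 change of -0.16 ± 0.07 (SE) had an adjusted p of 0.11 by edgeR, 0.022 by DESeq2 and 0.0039 without C3 library 1. After a correction for GC content the change was -0.23 (adjusted p = 0.0011 by edgeR, and 0.018 with a replicate block as well). In the other 12 refits the adjusted p was over 0.05. SETDB1 was at -0.05 (adjusted p = 0.73, and 0.03 on the log2 scale with scaling by library size alone). The fall with the smallest p was that of SUV39H1, a methyltransferase of pericentromeric H3 lysine 9, from 633, 636 and 581 to 513, 427 and 467 counts (log2 change -0.40 ± 0.08 SE, adjusted p = 0.0012). Of the HP1 genes, CBX5 fell (-0.34, adjusted p = 0.0015), CBX1 rose (0.27, 0.0022) and CBX3 was at 0.15 (0.17).

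Genes derived from retroelements, a class that includes known targets of KRAB zinc finger proteins, were tested for 5 of 10 on the list, and L1TD1 was listed at 0 in every library. All 5 fitted changes were negative with a median of -0.13, and 1 fell and 0 rose at an adjusted p below 0.05, where 8.77% and 11% of all 15078 kept genes did and 7483 of them had a negative change. ERVFRD-1, the gene of the envelope protein syncytin-2, went from 47.0, 54.1 and 45.4 to 18.2, 23 and 20.4 counts, a fall of 2.36-fold with no overlap (log2 change -1.24 ± 0.27 SE, adjusted p = 0.0015, and 0.012 without control library 2). ERVK13-1 had overlapping groups and a log2 fold change of -0.23 (adjusted p = 0.50), which lay between -0.43 and -0.051 with single libraries left out. The counts are per annotated gene, and transposable elements outside genes were not analysed here.

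Not every annotated member could be assessed. Of the 38 genes not kept, 31 reached 10 counts in no library (5 of them had no count at all), 6 did so in 1 library and 1 in 2 libraries, and the highest count was 14. Of the 211 kept genes, 200 had at least 10 counts in every library, and 0 were kept through 1 group alone. A further 28 genes had a fitted change beyond the fold gate without passing the p-value gate, 15 of them below 50 counts, and 179 of the 211 were fitted within it.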

How the data were processed

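RNA of Meg-01 cells was sequenced in 3 control and 3 C3 libraries. The authors trimmed reads with fastp, aligned them by STAR (2.6.1d) to GRCh38 and deposited raw counts per gene from featureCounts (1.5.0-p3, versions from the submitters' processing notes), without normalization. Which annotation they counted on, and whether by strand, is not given in the sources used here. Reads of antisense or overlapping genes may therefore be divided differently from their origin.

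Symbols and positions came from GENCODE release 44 on GRCh38 and were found for 58207 of 58735 identifiers. Genes with at least 10 counts in 3 libraries were kept, scaled with TMM factors and compared with edgeR's quasi-likelihood test (4.0.16, R 4.3.3) over all 15078 kept genes, without a replicate block, with the method tested on simulated data. Standard errors (SE) were derived from the log2 fold change and its F statistic. RPKM uses merged exon length. KRAB A boxes were found by a profile (pyhmmer 0.12.3, E below 1e-05) in translated canonical coding sequences, and C2H2 fingers by their spacing of cysteines and histidines. Normalized counts of named genes were compared by exact permutation as well (both sides). Named were members past both gates, the 4 largest rises and falls at an adjusted p below 0.05 and a mean of at least 50 counts, the 3 highest in RPKM, 7 well-known members, TRIM28, SETDB1 and the 2 smallest p-values of each list. Members, lists and this rule were chosen with earlier results of these data known. Alternatives were DESeq2 (1.42.0), limma-voom (limma 3.58.1), RLE factors, library size alone, no filter, a mean of at least 50 counts, a replicate block, each library left out and loess corrections for length and for GC content, the latter also together with the block. Chosen after seeing the data were the comparison in bands of mean count and the refits of the gene runs and of the groups by KRAB box and GC content. The paper's supplementary values were not used.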

Additional observations from a re-analysis of the deposited data

How the results depend on the processing

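The median log2 fold change of the zinc finger genes kept its direction in every alternative except scaling by library size alone, which moved the median of all tested genes to 0.076 on the log2 scale and that of the zinc finger genes from -0.04 to 0.041, so that relative to all genes it stayed lower. Under that scaling 1 zinc finger gene was higher and 2 were lower by both gates. At an adjusted p below 0.05, 7 rose and 6 fell, beside 15.3% and 4.04% of all kept genes. DESeq2 called 2 lower by both gates, and 1 higher and 11 lower at 0.05. Without a count filter 1 was higher by both gates. With the GC correction 1 was higher by both gates and 5 rose at 0.05, with or without the block, and the median difference from the other chromosome 19 genes went from -0.049 to -0.012. The replicate numbers do not pair the libraries (correlations of deviations of 0.021, -0.047 and 0.030), and with the replicate block 1 gene was higher and 6 lower by both gates. The median difference from the other chromosome 19 genes was -0.077 to 0.0074 with each library left out, and turned positive without C3 library 1. With each library left out, 0 to 1 genes were higher and 1 to 4 lower by both gates, 0 to 4 rose and 8 to 15 fell at 0.05, and the median log2 fold change was -0.055 to -0.0092. Of the 21 genes at an adjusted p below 0.05, all kept their direction and 5 (ZNF414, ZNF600, ZNF761, ZNF784 and ZNF888) stayed below 0.05 whichever library was left out. The cause of these shifts was not tested. Of the other values for single genes, gene groups and runs, 405 kept their direction and side of the threshold (counts: within 1.5 times), 50 no longer passed it, 8 newly passed it and 40 counts moved. A further 23 values, of 8 genes that passed the test in no fit, changed sign (lowest adjusted p 0.49). With library size alone the log2 fold change was 0.071 for ZNF428, 0.057 for ZNF91 and 0.027 for SETDB1. That of ZNF428 was 0.0078 without a count filter, 0.011 with a minimum mean count of 50, 3.6e-04 with the replicate block and 0.039 with the length correction, which gave -0.0013 for ZNF224. With each library left out the values were -0.045 to 0.043 for ZNF428, -0.11 to 0.090 for ZNF91, -0.28 to 0.098 for ZNF93, -0.0027 to 0.17 for ZNF274, -0.061 to 0.15 for ZNF224, -0.0038 to 0.88 for ZNF568, -0.040 to 0.13 for ZNF675 and -0.11 to 0.023 for SETDB1. Depth limits the genes under 50 counts, where the median standard error was 0.34 against 0.076 from 500 counts.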

Other observations

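By library, the run from ZNF101 to ZNF254 had a median log2 deviation from the control mean of -0.047, 0.0091 and 0.072 in control and of -0.059, 0.15 and 0.13 after C3. C3 libraries 2 and 3 were above the control libraries and C3 library 1 was below them. In the run from ZNF175 to ZNF331 the medians were -0.030, -0.0057 and 0.0058 in control and -0.11, -0.11 and -0.044 after C3, and all C3 libraries were below the control libraries. The run from ZNF628 to ZNF835 was at 0.059, 0.0091 and -0.020 in control and at -0.13, -0.23 and -0.14 after C3, also without overlap. These runs were chosen after their values were seen, and the differences were not tested. The palindromic promoter letters TCTCGCGAGA were in the windows of 2 members, ZNF414 and ZNF850, of which ZNF414 fell, and in 128 of 27305 windows of all genes (0.469%). Of the 211 members, 74 have exon bases antisense to exons of another gene.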
